A study of Mus musculus with 12 samples.

Results

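Transcripts of 49 mouse genes that act in mitosis and at the kinetochore were followed across 12 RNA-seq libraries of bone marrow derived macrophages. The genes were given as a list of symbols covering mitotic cyclins and kinases, the kinetochore, the spindle, condensin and cytokinesis, and all 49 matched an Ensembl identifier among the 55891 identifiers of the deposited table. The symbols were listed by role and not by a cut on measured values, although earlier results of these data were known. For description they were put into 10 role classes, from cyclins and Cdk1 control to the transcription factor Foxm1. M-CSF, the cytokine under which marrow cells become macrophages, was given at 10 ng/mL through 6 days of culture. The cells then stayed as controls, received 100 ng/mL LPS with 10 ng/mL IFNγ (IFNy in the labels) for 24 h, or received 20 ng/mL IL-4 for 24 h. Each treatment was given to cells labelled PTPRZ_WT (WT) and PTPRZ_KO (KO), which made 6 groups of 2 libraries. The strain label B6.129-Ptprz1tm1Nmo stood on every library, WT included, although the WT titles begin with B6. The labels do not say whether the libraries of a group came from separate mice or cultures, so every p-value measures only the spread between these libraries, which may be technical.

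Entry into mitosis is driven by cyclin A and cyclin B bound to the kinase Cdk1, with the Polo-like and Aurora kinases alongside. Condensin packs the chromosomes, kinetochores tie them to spindle microtubules, and the spindle checkpoint holds back the anaphase-promoting complex (APC/C) until every kinetochore is attached. Many of these genes are transcribed late in the cell cycle, through Foxm1 and through the CHR and CCAAT promoter elements that the DREAM and MuvB complexes and NF-Y bind. Macrophages grown in M-CSF proliferate, and LPS and IFNγ are known to halt that proliferation.

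The promoters are shown because the genes moved together. RefSeq windows on GRCm38.p6, which ran from 250 bases before to 50 bases after the gene start, were at hand for 38 of the 49 members. The CHR element was searched as TTTGAA or TTCGAA and the CCAAT box as CCAAT, both on either strand. A match of one can share at most its end base with a match of the other. The CHR letters were in 30 of the 38 member windows (78.9%), against 19.4% of 27025 genes with a window. All 30 held a match whose last base lay no more than 100 bases before the start, or after it, as did 8.98% of all windows. CCAAT was in 27 of 38 member windows (71.1%) and in 37.9% of all windows. Both elements together were in 65.8% of member windows and in 7.70% of all windows. Of 30 windows from genes of DNA replication and S phase, 20.0% held the CHR letters, 18 of the 30 held CCAAT and 16.7% held both elements. The members lie on 17 chromosomes, and Pbk (GRCm38 chr14:65805837-65817822) and Esco2 (chr14:65819038-65833994) are neighbours. Member windows without the CHR letters were those of Birc5, Ccnb1, Cenpe, Melk, Ncaph, Nuf2, Nusap1 and Pttg1, of which every gene but Pttg1 fell with LPS and IFNγ. A match is a string of letters and not a measured binding site. The 150 bases before the RefSeq gene start are printed for 6 members that fell with LPS and IFNγ. All 6 held both elements, as did Bub3, so they do not stand for all members. Cdk1 and Mki67 among them kept more than the median member in each genotype. The bases are also printed for Bub3, which kept most of its level, and for Pttg1, which rose. They run 5′ to 3′ on the gene's strand in GRCm38.p6, and capitals mark CHR and CCAAT matches, those on the other strand reading TTCAAA and ATTGG. RefSeq and GENCODE place some gene starts differently. The printed Pttg1 bases lie inside its GENCODE gene (chr11:43420250-43426251), so they are not upstream of that start. Nearly all printed Bub3 bases likewise lie inside its GENCODE gene (chr7:131560222-131571895). The counted windows of Cdca8, Kif2c and Kif4 also lie inside their GENCODE genes.
Cdk1, chr10:69352913-69353062, minus strand: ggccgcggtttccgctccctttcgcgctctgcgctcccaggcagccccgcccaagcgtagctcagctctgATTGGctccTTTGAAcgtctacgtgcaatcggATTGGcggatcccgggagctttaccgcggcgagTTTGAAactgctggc
Cdc20, chr4:118437344-118437493, minus strand: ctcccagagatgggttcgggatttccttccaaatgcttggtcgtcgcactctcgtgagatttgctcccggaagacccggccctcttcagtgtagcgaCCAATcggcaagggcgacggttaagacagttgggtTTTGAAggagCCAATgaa
Ube2c, chr2:164769779-164769928, plus strand: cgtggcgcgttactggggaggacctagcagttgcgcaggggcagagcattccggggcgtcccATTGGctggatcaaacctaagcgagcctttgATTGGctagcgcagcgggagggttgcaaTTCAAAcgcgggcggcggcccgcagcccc
Kif11, chr19:37376232-37376381, plus strand: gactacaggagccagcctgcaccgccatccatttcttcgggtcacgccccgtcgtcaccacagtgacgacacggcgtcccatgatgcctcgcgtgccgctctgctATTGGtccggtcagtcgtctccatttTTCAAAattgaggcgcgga
Top2a, chr11:99024190-99024339, minus strand: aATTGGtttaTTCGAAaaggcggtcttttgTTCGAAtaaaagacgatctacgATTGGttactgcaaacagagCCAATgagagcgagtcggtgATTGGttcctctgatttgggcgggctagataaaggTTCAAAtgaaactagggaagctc
Mki67, chr7:135716380-135716529, minus strand: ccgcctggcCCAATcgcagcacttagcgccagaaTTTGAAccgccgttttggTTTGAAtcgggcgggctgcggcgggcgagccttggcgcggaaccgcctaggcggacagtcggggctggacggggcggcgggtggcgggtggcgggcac
Bub3, chr7:131560220-131560369, plus strand: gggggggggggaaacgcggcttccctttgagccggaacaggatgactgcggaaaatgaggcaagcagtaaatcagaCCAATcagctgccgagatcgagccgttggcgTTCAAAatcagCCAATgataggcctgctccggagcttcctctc
Pttg1, chr11:43425982-43426131, minus strand: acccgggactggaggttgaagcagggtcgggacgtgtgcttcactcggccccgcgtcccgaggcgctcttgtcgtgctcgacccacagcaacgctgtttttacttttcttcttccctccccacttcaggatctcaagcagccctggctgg

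**Figure D1:**
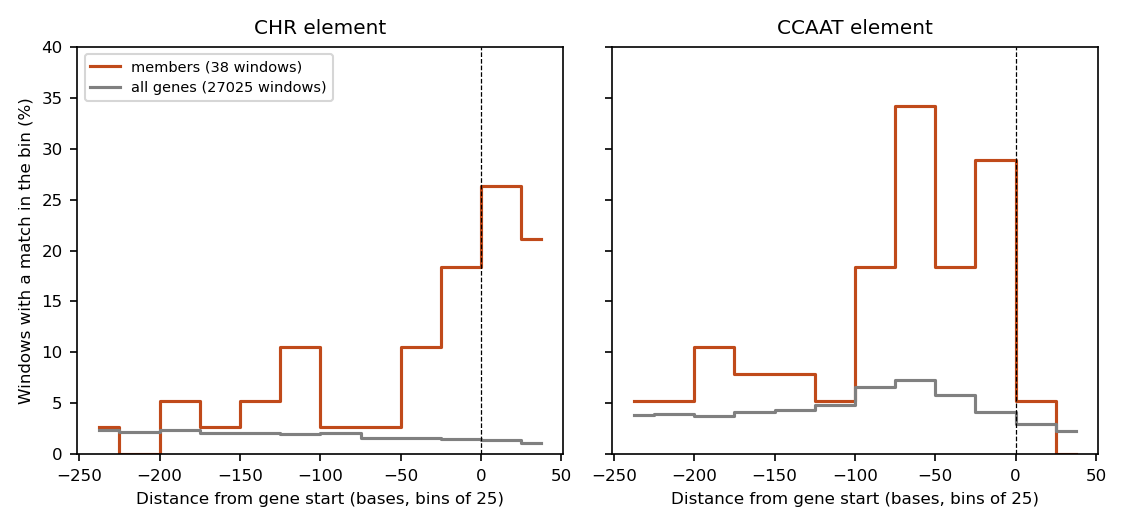
Share of promoter windows (y axis, percent) with a match that starts in each bin of 25 bases, by distance from the gene start (x axis), for 38 member windows (orange) and 27025 windows of all genes (grey). CHR matches of members were most frequent from the start to 25 bases after it, in 26.3% of windows against 1.37% of all windows, and CCAAT matches from 75 to 50 bases before it, in 34.2% against 7.28%.

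Library totals ran from 13665607 to 19555600 counts. TMM factors, which scale libraries to a common level of the bulk of the genes, were 0.756 to 0.833 with LPS and IFNγ and 1.09 to 1.16 elsewhere. Levels are in CPM, counts scaled to a common TMM-adjusted library size, which depend on transcript length and so are compared within a gene only. A library resolved 3 counts at 0.138 to 0.290 CPM. The targeted gene Ptprz1 had 0 counts in 11 libraries and 7 counts (0.344 CPM) in WT IL-4 library 2, so it could not check the genotype labels. Xist was read in WT libraries only (232 to 618 CPM) and the Y-linked Ddx3y in KO libraries only (86.3 to 111 CPM), so genotype and sex cannot be told apart. The 8 macrophage markers summed to 8245 to 20668 CPM. Summed levels of the other lists were 0.829 to 221 CPM for 12 granulocyte markers (Ms4a3 and Ly6g at 0 throughout), 0.678 to 5.13 for 5 blood progenitor markers, 0.0968 to 4.83 for 4 B cell markers, 0 to 0.507 for 5 erythroid markers (3 at 0 throughout) and 0 to 0.195 for 3 T cell markers (Cd3e at 0 throughout). The 9 stromal markers ranged from 55.7 to 1513 CPM and are given beside the genotype comparison.

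LPS and IFNγ brought nearly the whole gene set down to traces, in WT and in KO cells. The 49 members summed to 4443 and 4275 CPM in the WT control libraries and to 257 and 241 CPM with LPS and IFNγ. In KO cells the sums were 3762 and 2327 CPM in control and 255 and 287 CPM with LPS and IFNγ. In each genotype 48 of 49 members were lower and 1, Pttg1, was higher at an adjusted p below 0.05 (edgeR quasi-likelihood test, Benjamini-Hochberg over 13525 genes), where 27.0% of all genes tested were lower in WT and 26.1% in KO. Genes higher were 27.4% of all in WT and 27.2% in KO. DESeq2 called the same numbers of members, with 26.5% of all genes lower and 27.5% higher in WT and 26.0% and 26.9% in KO. In WT 48 members had both stimulated libraries below both control libraries, as 42.5% of all genes did, and in KO 48 did, as 37.1% of all genes did. The median member kept 1.26% of its control level in WT, 79.5-fold lower, and 1.67% in KO, 59.8-fold lower. Over all genes tested the median log2 change was -0.05 in WT and -0.01 in KO. In bulk RNA, fewer dividing cells and less of each transcript per cell cannot be told apart.

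The depth of the fall varied widely among members. In WT 23 members kept under 1% of the control level, 17 kept 1 to 5%, 6 kept 5 to 25%, 2 kept 25 to 100% and 1 exceeded it. In KO the same bins held 19, 18, 8, 3 and 1 members. Levels this low rest on few reads: in the LPS and IFNγ libraries together 10 members had 3 counts or fewer in WT and 14 in KO. All 49 passed the filter on low counts (about 0.555 CPM in at least 2 libraries), 22 of them through control and IL-4 libraries only. The percentages below are ratios of summed, scaled counts with exact 95% intervals that cover counting error only.

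**Figure D2:**
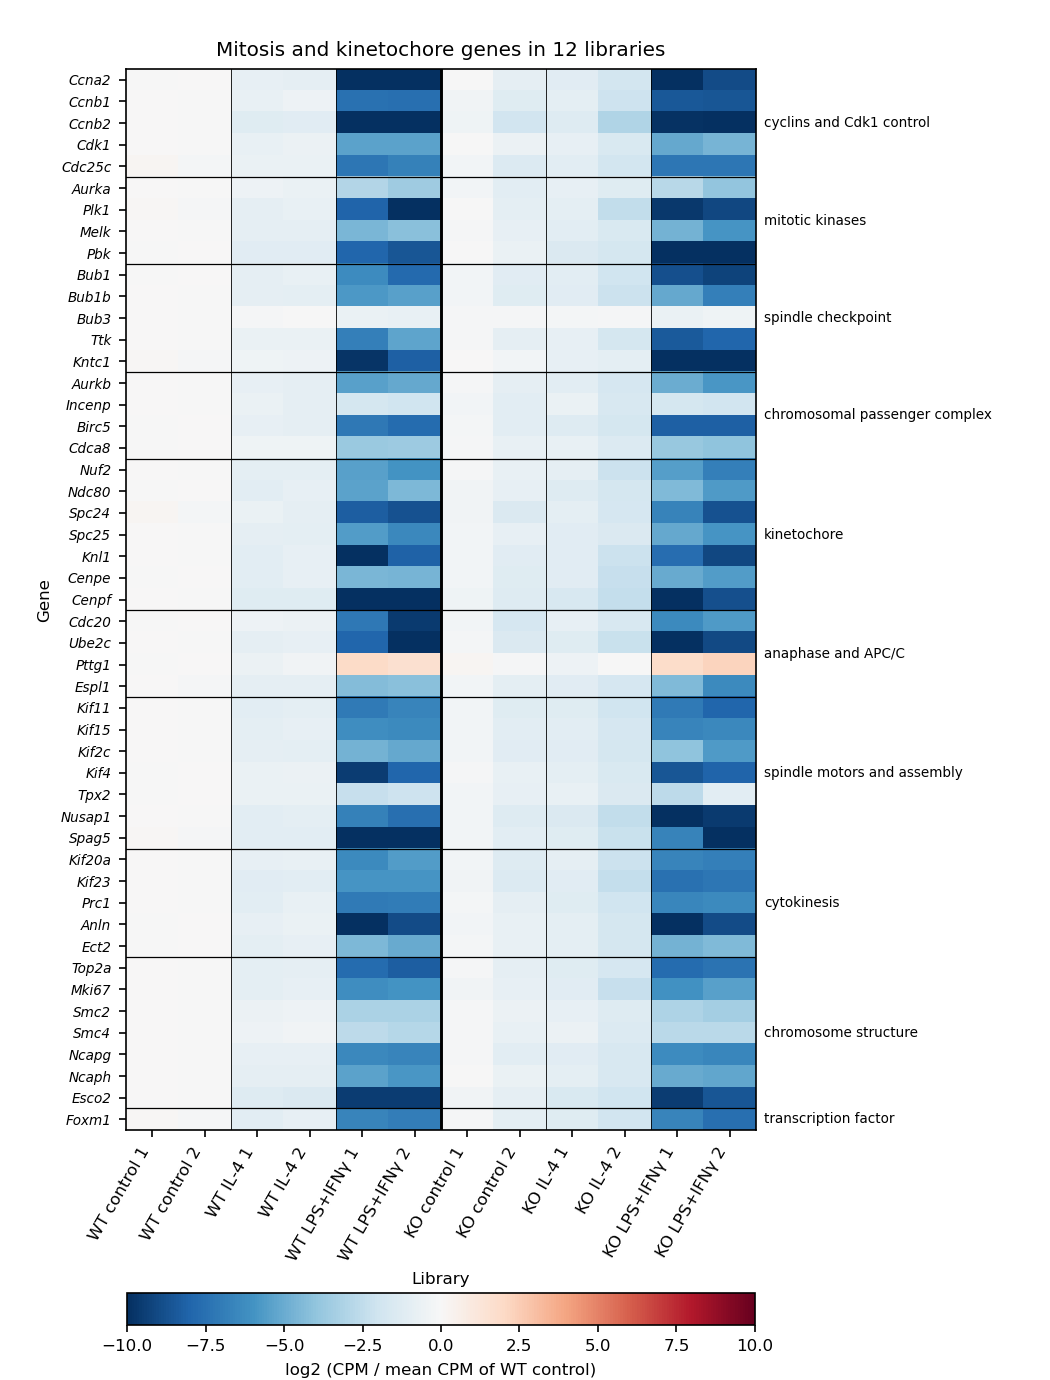
Level of 49 genes (y axis, in 10 role classes) in 12 libraries (x axis) as log2 of CPM over the mean of the WT control libraries (colour, from -10 to 10, with values under 0.05 CPM drawn at 0.05). The LPS and IFNγ columns are dark blue apart from a few genes such as Bub3, Incenp and Tpx2, Pttg1 is the single orange band, and KO libraries numbered 2 are bluer than KO libraries numbered 1 in control and IL-4.

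Among the cyclins and Cdk1 regulators, Cdk1 itself, the kinase that starts mitosis, kept the most. Cdk1 read 86.4 and 79.6 CPM in WT control and 2.04 and 2.03 CPM with LPS and IFNγ, which is 2.46% (interval 1.87 to 3.17). In KO it went from 79.0 and 54.3 to 2.43 and 3.29 CPM, or 4.15%. Its partners kept less. Ccnb1, a B-type cyclin that activates Cdk1, went from 74.4 and 73.0 to 0.409 and 0.407 CPM in WT and from 56.4 and 32.1 to 0.203 and 0.194 CPM in KO. That left 0.553% in WT and 0.446% in KO. Ccnb2, the other B-type cyclin measured, stood at 65.8 and 61.5 CPM in WT control and had 0 counts in both stimulated libraries, at least 311-fold lower against a floor of 3 counts in the shallower library. In KO a lone count remained for Ccnb2, against 1378 in control (ratio 0.122%, interval 0.00308 to 0.680). Ccna2, the S phase and mitotic cyclin, was left with 2 counts against 5746 in WT (0.0483%, interval 0.00585 to 0.175) and 3 against 4466 in KO (0.113%, interval 0.0233 to 0.330). Cdc25c, a phosphatase that switches Cdk1 on, had 1 count against 299 in WT and 0 against 193 in KO, at least 15.6-fold lower there. Reads of Exosc9 overlap Ccna2 on the opposite strand, and the sources do not state whether strand was used in counting. Exosc9 shares 863 bases with Ccna2 and summed to 41.5% of the Ccna2 counts, so the Ccna2 level is uncertain.

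The 4 mitotic kinases outside that group split by depth of fall. Plk1, the Polo-like kinase that acts from mitotic entry to cytokinesis, read 56.5 and 49.9 CPM in WT control and 0.204 and 0 CPM when stimulated, 3 counts against 2175 (0.192%, interval 0.0395 to 0.560). In KO it read 51.4 and 27.6 CPM in control and 0.0675 and 0.0968 CPM when stimulated. Pbk, a mitotic kinase, kept 5 counts against 2037 in WT and none against 1713 in KO, at least 139-fold lower. Aurka, which builds the spindle poles, fell least: 33.4 and 33.0 CPM became 4.29 and 2.78 CPM in WT, 10.6% (edgeR log2 fold change -3.23, SE 0.37, adjusted p = 6.67e-05). In KO it kept 17.5%. Melk, a kinase of proliferating cells, kept 4.93% in WT.

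Of the 5 spindle checkpoint genes, Bub3 kept by far the most. It encodes a WD-repeat protein that carries Bub1 and BubR1 to kinetochores, and it also binds spliceosome components in interphase cells. Bub3 read 86.3 and 85.2 CPM in WT control and 53.5 and 51.1 CPM with LPS and IFNγ, 61.0% of control (edgeR log2 fold change -0.71, SE 0.09, adjusted p = 0.000146). In KO it read 80.1 and 77.2 CPM against 55.4 and 62.0 CPM, or 73.8% (edgeR log2 fold change -0.42, adjusted p = 0.00355). With only the 4 KO libraries compared, the Bub3 call was lost (-0.45, edgeR adjusted p = 0.0506). Its checkpoint partners kept little. Bub1, a kinase of the checkpoint, kept 0.856% in WT and 3 counts in KO, and Bub1b, which encodes BubR1, kept 2.11% and 3.27%. Ttk, the Mps1 kinase that starts the signal, kept 1.76% in WT and 2 counts in KO. Kntc1, the Rod subunit that brings Mad proteins to kinetochores, went from 63.4 and 55.2 to 0.0681 and 0.203 CPM in WT. In KO it had 0 counts when stimulated, at least 189.6-fold lower.

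The transcripts for subunits of the chromosomal passenger complex, which corrects faulty kinetochore attachments, fell unevenly. Birc5 (survivin) went from 55.1 and 59.2 to 0.409 and 0.271 CPM in WT, 0.594% of control, and kept 0.520% in KO. Aurkb, the kinase of the complex, went from 64.2 and 58.0 to 1.43 and 1.76 CPM, 2.61% in WT and 3.60% in KO. Cdca8 (borealin) kept 7.82% and 9.12%. Incenp, the scaffold that holds the complex together, kept 27.0% in WT (180.1 and 163 to 49.6 and 43.0 CPM; edgeR adjusted p = 0.000643) and 43.9% in KO (139 and 83.1 to 51.2 and 46.0 CPM; edgeR adjusted p = 0.00876). The Incenp call in KO was lost without KO LPS and IFNγ library 2 (edgeR adjusted p = 0.0543) and without KO control library 1 (edgeR adjusted p = 0.0709). Among the transcripts for 1 complex, then, the share kept in WT ran from 0.594% to 27.0%. An opposite-strand neighbour, 9930104L06Rik, summed to 35.5% of the Cdca8 counts, so Cdca8 is uncertain.

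All 7 kinetochore genes fell in both genotypes. Cenpf, a large protein of the outer kinetochore and its fibrous corona, had the steepest fall, from 84.1 and 84.0 to 0.0681 and 0 CPM in WT, 1 count against 3437 (0.0404%, interval 0.00102 to 0.225). In KO 2 counts remained against 2013. Cenpe, the kinetochore kinesin that moves chromosomes to the spindle equator, kept the most in WT, where 99.4 and 100.0 became 4.09 and 3.93 CPM, 4.02%. In KO it kept 4.04%, less than Ndc80. The 4 subunits of the Ndc80 complex, the microtubule coupler, kept 3.39% (Ndc80), 1.94% (Nuf2), 1.59% (Spc25) and 0.166% (Spc24, 1 count, interval 0.00420 to 0.929) in WT. In KO Ndc80 kept 5.13% and Nuf2 2.17%, Spc25 had 28 counts against 1382 and Spc24 had 3 against 495. Knl1, the scaffold for Bub proteins, had 3 counts against 2214 in WT (0.188%, interval 0.0388 to 0.551) and kept 0.572% in KO.

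Pttg1 was the only member to rise. It encodes securin, the inhibitor that holds separase inactive until anaphase. Its level was 8.31 and 8.67 CPM in WT control and 32.1 and 26.2 CPM with LPS and IFNγ, 343% of control (edgeR log2 fold change 1.78, SE 0.21, adjusted p = 8.70e-05). In KO it was 9.53 and 7.75 CPM in control and 29.6 and 39.4 CPM when stimulated, 388% (log2 fold change 1.99, SE 0.21, edgeR adjusted p = 4.47e-05). The groups did not overlap in either genotype. The protease that securin inhibits moved the other way: Espl1 (separase) kept 5.18% in WT and 4.78% in KO. Ube2c and Cdc20, which act with the APC/C, fell with the rest. Anapc1, a subunit of the APC/C itself and not a member, changed little. It went from 141 and 136 to 122 and 115 CPM in WT (edgeR log2 fold change -0.22, SE 0.10, adjusted p = 0.0905). In KO its edgeR log2 fold change was -0.44 (SE 0.10, adjusted p = 0.00493). Ube2c, the ubiquitin-conjugating enzyme of the APC/C, went from 51.2 and 48.7 to 0.204 and 0 CPM in WT (3 counts against 2042, 0.204%, interval 0.0420 to 0.597) and to 1 count in KO. Cdc20, its mitotic activator, kept 0.353% in WT and 2.74% in KO, which is 4 and 15 counts when stimulated. Opposite-strand Elovl1 held 513% of the Cdc20 counts but overlaps Cdc20 by only 53 bases. How many Cdc20 counts came from that overlap is uncertain.

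**Figure D3:**
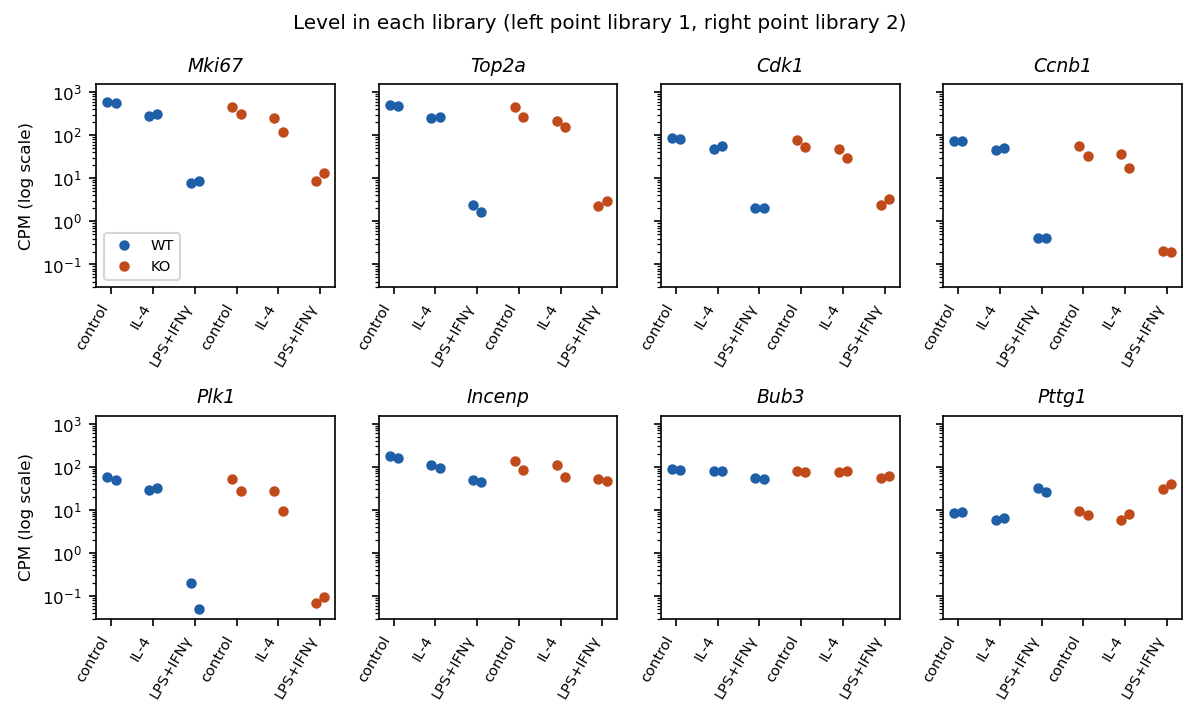
CPM on a log scale (y axis) of 8 genes in each library, by treatment (x axis), with WT in blue and KO in orange, library 1 left and library 2 right, and 0 counts drawn at 0.05. Mki67, Top2a, Cdk1, Ccnb1 and Plk1 drop by more than an order of magnitude with LPS and IFNγ, Incenp and Bub3 drop less, and Pttg1 rises to between 26.2 and 39.4 CPM.

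Spindle motors and assembly factors fell as a class of 7, with Tpx2 as the least affected. Spag5 (astrin), which stabilises kinetochore attachments and spindle poles, had 0 counts in both WT stimulated libraries against 59.8 and 50.5 CPM in control, at least 270.1-fold lower, and kept 0.887% in KO. Kif11, the motor that pushes spindle poles apart, kept 0.900% in WT and 0.951% in KO. Kif15 kept 1.26% and 1.67%, Kif2c, a microtubule depolymerase, 3.36% and 6.94%, while Nusap1, which bundles spindle microtubules, kept 0.725% in WT and 2 counts in KO. Kif4, the chromosome-bound kinesin, kept 0.272% and 0.417%. Tpx2, which activates Aurora A on the spindle, kept 22.4% in WT, from 102 and 108 to 21.7 and 25.2 CPM (edgeR adjusted p = 0.00199). In KO its stimulated libraries read 16.9 and 49.3 CPM against 88.8 and 60.1 CPM in control, 40.4% (edgeR log2 fold change -1.18, adjusted p = 0.0364). That call did not hold without KO LPS and IFNγ library 1 (-0.60, edgeR adjusted p = 0.136), without KO control library 1 (-0.88, edgeR adjusted p = 0.170), without any one WT library (edgeR adjusted p from 0.0503 to 0.0520) or with only the 4 libraries compared (edgeR adjusted p = 0.124). The 12 granulocyte markers summed to 39.4 CPM in KO LPS and IFNγ library 1 and 221 CPM in library 2. Nearly all of the library 2 sum was S100a8, at 220.3 CPM. Only 2 of the 12 were higher in library 2, and S100a9 read 0.810 CPM in library 1 and 0 in library 2. In WT, S100a8 also rose with LPS and IFNγ, from 0.778 and 1.53 CPM in control to 24.8 and 25.2 CPM. Whether granulocytes had a part in the Tpx2 value was not tested. Opposite-strand neighbours summed to 80.5% of the Kif4 counts (Pdzd11) and 16.7% of the Nusap1 counts (Oip5).

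The 5 cytokinesis genes fell to between 0.139% and 3.72% in WT. Anln (anillin), which organises the contractile ring, went from 96.8 and 98.9 to 0.0681 and 0.203 CPM in WT, 0.139%, and kept 3 counts in KO. Ect2, the exchange factor that activates RhoA for the ring, fell least: 51.6 and 56.2 became 2.38 and 1.63 CPM in WT, 3.72%, and KO kept 5.74%. Prc1, which bundles the microtubules of the midzone, kept 0.763% in WT and 1.64% in KO, and its partner Kif23 kept 1.68% and 1.01%. Kif20a, a midzone kinesin, kept 1.67% and 1.57%, with counts of the opposite-strand neighbour Cdc23 at 76.9% of its own.

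Chromosome structure genes held both the proliferation marker and the best retained condensin subunits. Mki67, the Ki-67 protein that coats mitotic chromosomes, went from 592 and 547 to 7.70 and 8.88 CPM in WT, 1.46%, and from 448 and 315 to 8.78 and 13.4 CPM in KO, 2.78%. Top2a, the topoisomerase that untangles sister chromatids, went from 492 and 484 to 2.38 and 1.63 CPM in WT, 0.411% (edgeR log2 fold change -7.92, SE 0.35, adjusted p = 3.31e-07), and kept 0.703% in KO. Esco2, which acetylates cohesin to establish cohesion, had 0 counts in both stimulated WT libraries against 37.7 and 34.7 CPM in control, at least 177-fold lower, and 1 count against 1024 in KO. Condensin's shared ATPase subunits stayed higher. Smc4 went from 198 and 191 to 32.2 and 27.6 CPM in WT, 15.3%, and kept 19.9% in KO, and Smc2 kept 11.1% and 13.6%. The subunits specific to condensin I did not: Ncapg kept 1.11% and 1.74% and Ncaph 2.14% and 3.66%. Lcorl, on the opposite strand, summed to 98.0% of the Ncapg counts. Foxm1, the transcription factor of the late cell cycle genes, went from 77.8 and 69.2 to 0.749 and 0.610 CPM in WT, 0.924% (edgeR adjusted p = 1.89e-06), and kept 1.12% in KO.

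**Figure D4:**
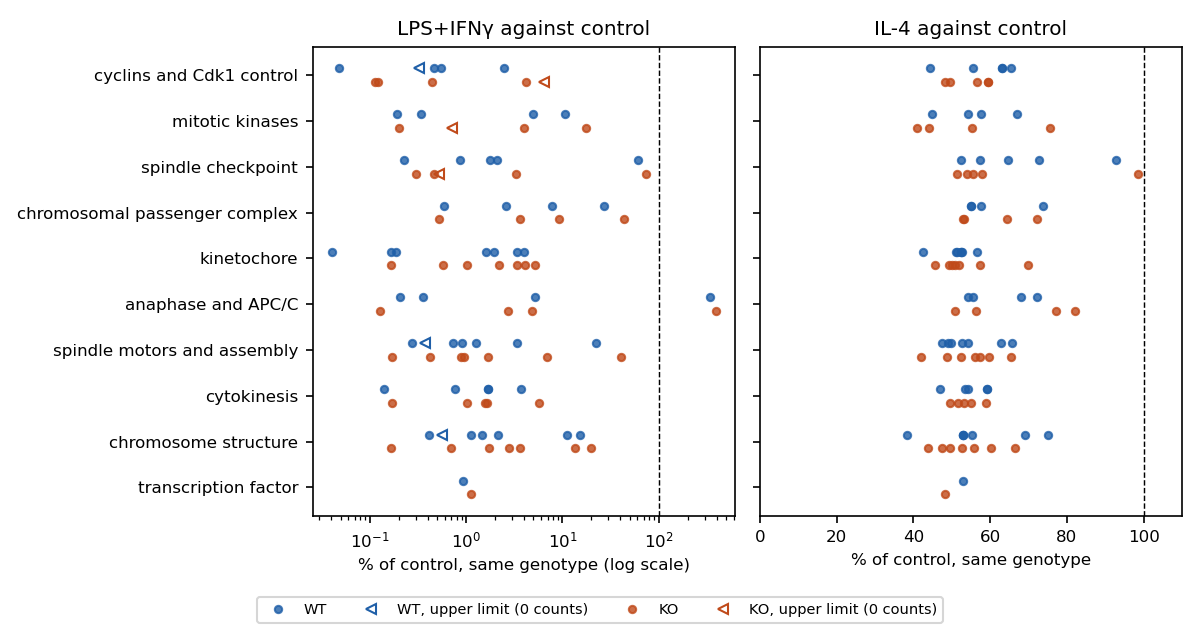
Level with LPS and IFNγ (left, log axis) and with IL-4 (right, linear axis) as percent of the control of the same genotype (x axis), for 49 genes by role class (y axis). WT is blue and KO orange, and open triangles are upper limits for genes with 0 counts. With LPS and IFNγ the medians lie at 1.26% in WT and 1.67% in KO, and with IL-4 at 55.0% and 53.9%.

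With IL-4 the same genes stood much nearer to control. In WT the median member stood at 55.0% of control, from 38.4% (Esco2) to 92.9% (Bub3), and in KO at 53.9%, from 40.8% (Pbk) to 98.6% (Bub3). The fitted change was negative for all 49 members in both genotypes, with medians of -0.86 and -0.85 on the log2 scale against -0.02 and 0.00 over all genes tested. Few of these changes passed the test. In WT 6 members were lower at an edgeR adjusted p below 0.05, where 4.12% of all genes were, and in KO 5, where 3.34% were. At an unadjusted p below 0.05 edgeR had 34 members lower in WT (12.7% of all genes) and 35 in KO (12.1%). DESeq2's adjusted p called 22 in each. It called 7.59% of 11951 genes in WT and 7.98% of 12214 in KO, the genes it gave an adjusted p. Both IL-4 libraries lay below both control libraries for 49 of 49 members in WT, as for 33.3% of all genes, and for 27 of 49 in KO, as for 23.6%. The KO overlap came with a wide gap between its libraries, which is described with the genotype comparison.

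The 6 members called in WT were Pbk, Esco2, Spc25, Ncaph, Top2a and Cenpf, and the 5 in KO were Pbk, Esco2, Kntc1, Smc2 and Top2a. Top2a read 253 and 262 CPM with IL-4 in WT, 52.8% of control (edgeR log2 fold change -0.92, SE 0.24, adjusted p = 0.0453). In KO it read 211 and 153 CPM, 49.6% (edgeR adjusted p = 0.0431). Pbk read 22.3 and 22.4 CPM in WT, 44.8% of its control at 49.8 and 49.9 CPM (edgeR adjusted p = 0.0124), and 18.3 and 15.1 CPM in KO (edgeR adjusted p = 0.0104). Esco2, the lowest in WT, read 14.6 and 13.3 CPM (edgeR adjusted p = 0.0166), and 12.7 and 8.90 CPM in KO (edgeR adjusted p = 0.0351). Both pairs of Esco2 libraries lay under every control library of their genotype. Of the genes that did not pass, Mki67 read 284 and 316 CPM in WT (52.9%, edgeR adjusted p = 0.112), Cdk1 49.1 and 55.2 CPM (63.1%, 0.109) and Plk1 29.3 and 31.7 CPM (57.5%, 0.296). Bub3, at 77.5 and 81.5 CPM, was the member nearest to control (edgeR log2 fold change -0.11, SE 0.09, adjusted p = 0.507). Pttg1, which rose with LPS and IFNγ, read 5.75 and 6.48 CPM (72.3%, edgeR adjusted p = 0.206).

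The number of members called with IL-4 changed widely with the libraries fitted. With only the 4 WT libraries compared 46 members were called, where 3475 of 12448 genes were called in either direction. With only the 4 KO libraries 0 members were called, where 8 of 12555 genes were. The WT count was 0 when any one WT control or WT IL-4 library was left out and 3 when either WT LPS and IFNγ library was. It was higher than with all libraries when any one KO control or KO IL-4 library was left out, where more of all genes were called too. The KO count was 0 when KO IL-4 library 2 was dropped and 1 when KO control library 1 was. The KO count was higher without KO IL-4 library 1 or without KO control library 2, where more of all genes were called too. It was 2 without any one WT control or WT IL-4 library and 3 without either WT LPS and IFNγ library. Over all genes the calls in either direction, 1222 in WT, were 175 to 281 when one WT control or WT IL-4 library was left out. The 928 in KO were 303 without KO control library 1 and 424 without KO IL-4 library 2. Leaving out the 3 KO libraries numbered 2 together raised the members called and the calls over all genes, in WT and in KO.

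Set against IL-4 directly, LPS and IFNγ gave the lower level for 48 members in WT and 46 in KO, and the higher level for 1, Pttg1, in each (edgeR adjusted p below 0.05). Of all genes 28.1% were lower in WT and 28.1% in KO, and 28.1% were higher in WT and 26.7% in KO. Incenp and Tpx2 were the members without a call in KO. Incenp read 109 and 56.6 CPM with IL-4 and 51.2 and 46.0 CPM with LPS and IFNγ, without overlap. For Tpx2 the KO groups overlapped, at 61.1 and 38.4 CPM against 16.9 and 49.3 CPM.

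Between genotypes no member passed the test. In control cells the fitted KO to WT difference was negative for 48 of 49 members with a median of -0.56 on the log2 scale, against 0.01 over all genes tested. With IL-4 it was negative for 48 of 49 with a median of -0.55, against 0.00. With LPS and IFNγ 24 of 49 were negative. By edgeR and by DESeq2 alike 0 members were called in any treatment, where edgeR called 0.0739% of all genes in control, 0.0665% with IL-4 and 0.0591% with LPS and IFNγ. DESeq2 called 0.594%, 0.159% and 0.251% of the genes it gave an adjusted p, which were 11951, 11951 and 13525. Without KO LPS and IFNγ library 1 edgeR called 504 of all genes with LPS and IFNγ in place of 8, and still 0 members. At an unadjusted p below 0.05 edgeR had 6 members lower in control (4.07% of all genes), 9 with IL-4 (1.32%) and 2 with LPS and IFNγ (3.45%), and none higher. Over the mean of the 3 treatments 0 were called (0.170% of all genes by edgeR and 0.794% of 12214 genes with an adjusted p by DESeq2). There 12 had a negative difference with an unadjusted edgeR p under 0.05 (4.85% of all genes). Over control and IL-4 alone, a mean added after seeing the data, edgeR called 0 and 48 were negative. No member passed the test that its change with LPS and IFNγ or with IL-4 differed between genotypes (0 called by edgeR and by DESeq2, with 0% of all genes by edgeR and 0.0444% by DESeq2 in each). At an unadjusted p below 0.05 edgeR had 5 members in the LPS and IFNγ interaction (3.52% of all genes) and 0 in the IL-4 interaction (4.47%).

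Ccnb2 had the most negative KO to WT value in control, at 65.8 and 61.5 CPM in WT and 47.5 and 16.9 CPM in KO (edgeR log2 fold change -0.98, SE 0.55, adjusted p = 0.708). With IL-4 it read 27.8 and 28.5 CPM in WT and 25.6 and 7.95 CPM in KO (-0.75, SE 0.56, edgeR adjusted p = 0.980). Both KO libraries were below both WT libraries, but library 2 lay far below library 1. Mki67 showed the same order, with 592 and 547 CPM in WT control, 448 and 315 CPM in KO control, 284 and 316 CPM in WT IL-4 and 256 and 117 CPM in KO IL-4. Birc5 differed by -0.59 in control (SE 0.24) and -0.62 with IL-4 (SE 0.25), with edgeR adjusted p of 0.666 and 0.980. Bub3 differed by -0.13 (SE 0.09) and -0.04 (SE 0.09), and Pttg1 by 0.03 (SE 0.21) and 0.21 (SE 0.22). Pbk had the smallest unadjusted p over the mean of treatments, 0.00654 (edgeR adjusted p = 0.379), which rests on LPS and IFNγ libraries with 5 counts in WT and 0 in KO. Over control and IL-4 alone its difference was -0.36 (SE 0.14, edgeR adjusted p = 0.666).

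Much of the KO difference sat in the KO libraries numbered 2. Relative to the WT mean of the same treatment, the median member stood at 84.6% in KO control library 1 and 52.1% in library 2, and at 85.8% in KO IL-4 library 1 and 51.5% in library 2. Library 2 was below library 1 for 49 of 49 members in KO control and 47 of 49 in KO IL-4, where 49.5% of all genes were in each. In WT the corresponding counts were 36 of 49 in control (49.3% of all genes) and 19 of 49 with IL-4 (47.9%). The median log2 ratio of library 2 to library 1 was -0.76 in KO control and -0.74 in KO IL-4, against -0.05 and 0.03 in WT. KO library 1 also lay below both WT libraries for 46 of 49 members in control (35.9% of all genes) and 46 with IL-4 (30.5%). Both KO libraries lay below both WT libraries for 46 of 49 in control (22.6% of all genes) and 45 of 49 with IL-4 (15.6%). With LPS and IFNγ this held for 15 of 49 (19.6%). Ccnb2 had the most negative ratio of library 2 to library 1 in both treatments, -1.49 in control and -1.68 with IL-4, while Bub3 was the highest in control at -0.05 and Pttg1 with IL-4 at 0.47. Across the 49 members the ratios in KO control and KO IL-4, which share no library, had a Pearson r of 0.65 and a Spearman rho of 0.56, and in WT 0.24 and 0.17. Members are not independent replicates, and the labels do not say what the library numbers stand for.

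The stromal markers also differed between libraries numbered 1 and 2, in WT as well as in KO. Their sum was 77.1 and 406 CPM in the WT control libraries and 409 and 1009 CPM in the KO control libraries. With IL-4 it was 62.3 and 258 CPM in WT and 398 and 1513 CPM in KO, and with LPS and IFNγ 55.7 and 218 CPM in WT and 322 and 853 CPM in KO. Library 2 had the higher stromal sum in all 6 groups. From KO library 1 to library 2, 7 of 9 stromal markers were higher in control and 8 of 9 with IL-4. From WT library 1 to library 2, 8 of 9 were higher in each. WT control library 2 and KO control library 1 had nearly equal stromal sums, 406 and 409 CPM, and their member sums were 4275 and 3762 CPM. That sets 1 library against 1 library, which also differ in genotype, sex and library number, so no conclusion is drawn from it. The macrophage markers summed to 18970.5 and 14511 CPM in the KO control libraries and 9160.2 and 10308 CPM with IL-4. Of these 8 markers, 2 were higher in library 2 in KO control and 3 in KO IL-4. Lyz2, the largest of them, read 3986 and 6275 CPM in KO IL-4, while Csf1r read 1578 and 1237 CPM. The 4 B cell markers summed to 3.36 and 0.341 CPM in KO control and 1.91 and 0.142 CPM in KO IL-4. The 12 granulocyte markers summed to 9.40 and 0.829 CPM in the KO control libraries and 13.1 and 1.61 CPM with IL-4, and 0 of 12 were higher in library 2. The part of these cells in the member levels was not tested.

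**Figure D5:**
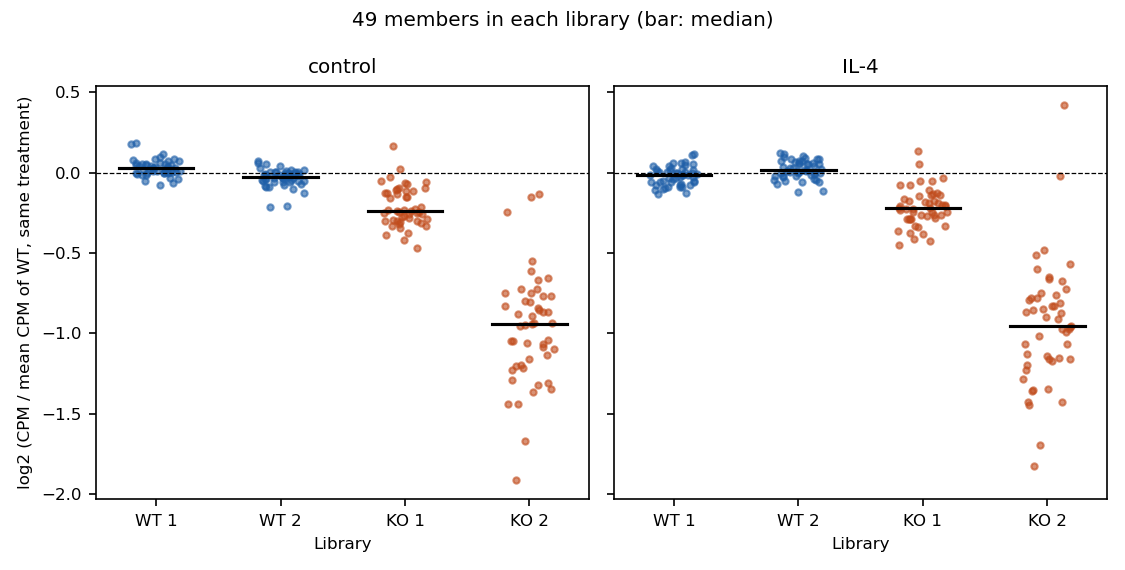
Each of 49 genes in each control (left) and IL-4 (right) library, as log2 of CPM over the WT mean of the same treatment (y axis), by library (x axis), with WT in blue, KO in orange and the median as a bar. WT libraries centre on 0, KO library 1 has medians of -0.24 and -0.22, and KO library 2 has medians of -0.94 and -0.96.

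Other genes of the cell cycle followed in part. With LPS and IFNγ in WT, 23 of 24 further spindle and cytokinesis genes were lower, 19 of 20 inner kinetochore and centromere genes, 16 of 18 further outer kinetochore and checkpoint genes (1 higher), 10 of 14 further condensin and cohesin genes (2 higher) and 19 of 24 further genes of mitotic entry and exit (edgeR adjusted p below 0.05). In KO the numbers lower were 22, 19, 16, 10 and 19, with 1 higher in each but the inner kinetochore list. Over all genes 27.0% were lower and 27.4% higher in WT, and 26.1% and 27.2% in KO. Ska1, a subunit of the Ska complex that follows microtubule ends, had 0 counts in all 4 stimulated libraries, against 8.17 and 9.11 CPM in WT control and 8.01 and 3.75 CPM in KO control. Mis12, the platform of the outer kinetochore, did not pass, at 52.0 and 52.4 CPM in WT control and 58.2 and 58.5 CPM when stimulated (edgeR log2 fold change 0.16, SE 0.09, adjusted p = 0.140). Nor did Stag1, a cohesin subunit, at 67.0 and 70.0 against 70.8 and 72.2 CPM (edgeR adjusted p = 0.612).

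The S phase genes fell too. All 38 were lower with LPS and IFNγ in both genotypes by edgeR, where 27.0% of all genes were in WT and 26.1% in KO. Their median log2 changes were -3.16 in WT and -3.47 in KO. Pcna, the sliding clamp of DNA replication, went from 616 and 616 to 192 and 206 CPM in WT (edgeR log2 fold change -1.63, SE 0.14, adjusted p = 1.31e-05). With IL-4 the WT median of the 38 was -0.18 with 5 lower (4.12% of all genes), beside a median of -0.86 for the 49 members. Pcna read 794 and 734 CPM (edgeR adjusted p = 0.200). In KO the IL-4 median was -0.53 with 15 lower (3.34% of all genes). Between the KO libraries the median log2 ratio of library 2 to library 1 of S phase genes was -0.12 in KO control and -0.09 in KO IL-4, beside -0.76 and -0.74 for the members. For the 24 further spindle and cytokinesis genes it was -0.83 and -0.87. In control cells the median KO to WT difference was 0.18 for S phase genes, with 28 of 38 positive, beside 6913 of all 13525 genes, and 0 called by edgeR. At an unadjusted p below 0.05 edgeR had 8 of the 38 higher (3.40% of all genes), and DESeq2 called 3 higher (0.251% of 11951 genes with an adjusted p).

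Among 26 genes of G1 and cell cycle arrest, 11 were lower and 6 higher with LPS and IFNγ in each genotype by edgeR, where over all genes 27.0% and 26.1% were lower and 27.4% and 27.2% higher. Cdkn1a, which encodes the Cdk inhibitor p21, rose from 96.5 and 88.3 to 634 and 535 CPM in WT (edgeR log2 fold change 2.66, SE 0.17, adjusted p = 2.01e-06) and from 116 and 109 to 552 and 747 CPM in KO (2.53, SE 0.17, edgeR adjusted p = 2.80e-06). With IL-4 it read 120.5 and 106 CPM in WT (edgeR adjusted p = 0.294). E2f7, a transcriptional repressor of the cell cycle, had 0 counts in all 4 stimulated libraries against 32.8 and 25.6 CPM in WT control. Ccnd1, the G1 cyclin D1, went from 119 and 121 to 69.5 and 71.8 CPM in WT (edgeR adjusted p = 0.0181), and from 198 and 312 to 86.9 and 76.6 CPM in KO (edgeR adjusted p = 0.000268). In KO control, Ccnd1 was therefore higher in library 2, where the mitotic members were lower and the stromal sum was higher (1009 against 409 CPM). Of the 26 genes of G1 and arrest, 15 were lower in KO control library 2, with a median log2 ratio to library 1 of -0.10. What lay behind the Ccnd1 gap was not tested.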

How the data were processed

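RNA was made into directional RNA-seq libraries, per the labels' protocols. The submitters' processing notes name FastQC 0.11.9, Salmon 1.10.2, R 4.4.1, DESeq2 1.45.3 and GRCm39. The authors deposited 1 table of estimated counts per Ensembl gene, all whole numbers. Strand use, transcript set and read filters are not stated there. Symbols, positions and overlaps came from GENCODE M21 on GRCm38 (92.0% of 55891 identifiers matched) and promoters from RefSeq.

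Counts were filtered (filterByExpr), TMM-scaled and fitted over all 12 libraries with edgeR 4.0.16 (R 4.3.3, quasi-likelihood test, 6 group means, Benjamini-Hochberg over 13525 genes, threshold 0.05), tested on simulated data beforehand. DESeq2 1.42.0, another filter, other scaling, libraries left out and a replicate block were alternatives. Ratios used summed counts with Clopper-Pearson intervals, and 0 counts were set to 3 counts in the shallowest library of the group. The members and lists were chosen with earlier results of these data known. Named members were, per role, the largest and smallest change with LPS and IFNγ in WT, 8 set genes and the smallest p between genotypes; other pathway genes were chosen likewise, 2 largest and 1 smallest per list, with Cdkn1a, Ccnd1 and Pcna. Others named were chosen after their values were seen. Lists covered 7 pathways and 7 cell types. Same-numbered libraries are not said to be paired.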

Additional observations from a re-analysis of the deposited data

How the results depend on the processing

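The fall with LPS and IFNγ was the most stable result: 49 members were called in WT under every alternative, 47 to 49 in KO, 47 to 49 for WT and 46 to 49 for KO against IL-4. These counts are of calls in either direction and include Pttg1, which rose. Members called with IL-4 were not stable. In WT 6 became 22 with DESeq2, 33 without the filter, 46 with only the 4 libraries compared, 45 without the KO libraries numbered 2 and 20 with a replicate block, and ranged from 0 to 16 with 1 library left out. In KO 5 became 22, 34, 0, 41 and 18 under the same settings and ranged from 0 to 23. The cause was not tested. Between genotypes over the mean of treatments 0 became 4 without the filter. The replicate block changed no other count of members except KO LPS and IFNγ against IL-4, from 47 to 48. The labels do not pair the libraries, and deviations of same-numbered libraries correlated at 0.0464 to 0.337. Without KO control replicate 1 the IL-4 change in KO reversed for Aurka (0.03) and Bub3 (0.01), which ranged down to -0.74 and -0.08 with 1 library left out. Of 1879 alternative fold changes of named members, 1685 kept direction and call, 138 gained and 54 lost a call. Without TMM factors the median of all genes shifted by -0.50 with LPS and IFNγ and the share of calls that were higher went from 50.4% to 24.9% in WT and from 51.0% to 24.8% in KO. Against IL-4 it went from 49.9% to 28.1% in WT and 48.7% to 25.3% in KO, and for IL-4 in WT from 54.4% to 43.7%. No member reversed in those contrasts. Counts over all genes moved too: with IL-4 1222 in WT became 1909 (DESeq2), 3475 (4 libraries) and 3545 (without KO libraries numbered 2), and 928 in KO became 1681, 8 and 1816, and 1620 without the filter. With 1 library left out the WT count was 175 to 281 (a WT control or IL-4 library) and 757 or 768 (a WT LPS and IFNγ library), and the KO count 303 (KO control 1), 424 (KO IL-4 2), 486 or 495 (a WT control library) and 554 or 558 (a WT LPS and IFNγ library). For KO against WT, 10 in control became 71 (DESeq2), 107 (no filter), 4 (4 libraries), 146 (without KO libraries numbered 2) and 27 (block), 8 with LPS and IFNγ became 34, 81 and 21 (DESeq2, no filter, block), 9 with IL-4 became 19, 33, 5 and 36 (DESeq2, no filter, 4 libraries, block) and 23 over the mean became 97, 312 and 173. The 0 genes in the interactions became 6 and 6 (DESeq2), 8 and 23 (no filter) and 54 and 26 (without KO libraries numbered 2). Without KO LPS and IFNγ library 1 the KO against WT count with LPS and IFNγ was 504, over the mean 130 and in that interaction 27. Without KO control library 2 it was 49 in control and 11 and 12 in the interactions, and without KO IL-4 library 1 it was 20 with IL-4. The mean gave 15 without WT control 1 or WT IL-4 1, and the LPS and IFNγ interaction 1 without KO LPS and IFNγ library 2. Depth limits the LPS and IFNγ values, where 3 counts are 0.203 to 0.290 CPM and 22 of the 49 members passed the filter through control and IL-4 libraries only.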
